A study of Mus musculus with 84 samples.

Results

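The genes described here are 8 genes of voltage-gated potassium channels, found by symbol among the 43629 genes of a count table from mouse ventrolateral striatum. Of these, 7 encode the pore-forming subunits: Kcna1, Kcna2 and Kcna4 of the Shaker family, Kcnc1 of the Shaw family, Kcnd2 and Kcnd3 of the Shal family, and Kcnq3. The remaining gene, Kcnip2, encodes KChIP2, a calcium-binding accessory protein of Shal channels. All 8 had enough reads to be tested. A wider list of 54 voltage-gated potassium channel subunit genes was used as their setting; 53 were found in the table and 47 were tested.

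The tissue was ventrolateral striatum, dissected by hand from 84 adult mice, and its RNA was sequenced. There were 44 High Drinker animals (21 females and 23 males) and 40 Low Drinker animals (18 females and 22 males). All were naive and untreated, and they came from the SOT and NOT mice at selection generation 4 of breeding on ethanol preference and withdrawal together. The labels give neither exact ages nor families, and do not say which of the names SOT and NOT stands for which group.

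Voltage-gated potassium channels open when the membrane depolarises and let potassium leave the cell, which ends the action potential and sets how soon the next can follow. Shal channels with their KChIP partners, and the Shaker channel made from Kcna4, carry fast transient A-type currents. Channels holding Kcna1 and Kcna2 open at low voltage, sit on axons and delay firing, and Kcna2 also serves a slowly inactivating current of striatal medium spiny neurons. Kcnc1 channels let interneurons fire at high rates, and Kcnq3 channels carry the M-current that muscarinic receptors suppress.

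On build mm10, by the positions in the count table, Kcna1 lies on the reverse strand at chr6:126636463-126645801 and Kcna2 on the forward strand at chr3:107101567-107106879. Kcna4 is at chr2:107290639-107298502, Kcnc1 at chr7:46396497-46438375, Kcnd2 at chr6:21215503-21729805 and Kcnd3 at chr3:105452330-105674002, all on the forward strand. Kcnip2 (chr19:45791839-45816061) and Kcnq3 (chr15:65986387-66286224) are on the reverse strand. Counts were over the exons of these protein-coding genes. By the exons of GENCODE vM21, only Kcnd3 of the 8 shared exon bases with another annotated gene, 165 with the antisense gene Kcnd3os. The exon length of Kcnd3 in the count table was 9587 bases. Overlaps in the annotation of the count table itself were not checked. There Kcna5 spans chr6:126532553-126698192, which encloses Kcna1. The kits named in the labels do not mark strand and the strand setting of counting is not known here. Reads from the stretch shared by Kcnd3 and Kcnd3os may thus come from either gene.

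Promoter windows are shown for 3 genes whose levels moved together over the animals, Kcna4, Kcnd2 and Kcnip2, and for Kcnc1, whose r with them was negative (-0.511 with Kcna4, -0.527 with Kcnip2 and -0.248 with Kcnd2, the last -0.131 in set 2). Each is the 250 bases before the RefSeq start on GRCm38.p6, 5′ to 3′ on the gene's strand. Capitals mark a GC box, GGGCGG or its complement CCGCCC.
Kcna4 promoter window, chr2:107290339-107290588 (+): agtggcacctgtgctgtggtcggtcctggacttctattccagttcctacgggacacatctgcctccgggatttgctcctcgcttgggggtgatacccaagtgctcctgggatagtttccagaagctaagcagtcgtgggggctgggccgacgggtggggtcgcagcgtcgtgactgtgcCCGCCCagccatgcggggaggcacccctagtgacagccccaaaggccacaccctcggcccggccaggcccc
Kcnd2 promoter window, chr6:21215096-21215345 (+): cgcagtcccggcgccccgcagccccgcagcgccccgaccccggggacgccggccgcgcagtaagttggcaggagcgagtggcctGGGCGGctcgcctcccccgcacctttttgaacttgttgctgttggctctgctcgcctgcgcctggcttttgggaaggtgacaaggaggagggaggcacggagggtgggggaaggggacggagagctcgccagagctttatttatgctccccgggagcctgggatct
Kcnip2 promoter window, chr19:45816064-45816313 (-): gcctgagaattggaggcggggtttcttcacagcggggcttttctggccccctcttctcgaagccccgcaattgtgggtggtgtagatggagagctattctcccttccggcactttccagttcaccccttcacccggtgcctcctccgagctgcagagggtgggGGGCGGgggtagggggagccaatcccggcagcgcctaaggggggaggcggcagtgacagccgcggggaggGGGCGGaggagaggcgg
Kcnc1 promoter window, chr7:46396218-46396467 (+): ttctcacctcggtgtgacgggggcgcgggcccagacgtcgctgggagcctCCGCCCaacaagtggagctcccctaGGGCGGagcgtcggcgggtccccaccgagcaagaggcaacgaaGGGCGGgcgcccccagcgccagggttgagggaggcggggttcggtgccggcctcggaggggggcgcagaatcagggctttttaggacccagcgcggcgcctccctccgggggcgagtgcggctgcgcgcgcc
The GC content of these windows was 65.2% for Kcna4, 68.8% for Kcnd2, 66.8% for Kcnip2 and 74.4% for Kcnc1, against a median of 52.4% over 32851 RefSeq promoter windows of the same length. Kcna4 and Kcnd2 held 1 GC box each, Kcnip2 held 2 and Kcnc1 held 3, on either strand and without overlap. At least 1 GC box was present in 32.74% of all windows. None of the 4 windows held TATAAA (12.37% of all windows), the cyclic AMP response element TGACGTCA (1.546%) or the E-box CACGTG (6.021%) on either strand. A match is a string of letters and not a known binding site. RefSeq windows were found for 6 of the 8 genes. Those of Kcna2 and Kcnd3 overlap annotated exons and are not shown. They held 0 GC boxes each, at a GC content of 62.4% for Kcna2 and 62.8% for Kcnd3.

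The libraries held 22190363 to 41300401 gene counts, with medians of 31877407 in High Drinker libraries and 30874656.5 in Low Drinker libraries. At this depth each of the 8 genes had at least 95 counts in every library. Sample numbers in the titles run in 3 sets of 48, 30 and 6 libraries (30, 11 and 3 High Drinker against 18, 19 and 3 Low Drinker); the labels do not say what the sets are, and the models reported hold set as a term. The summed level of 13 medium spiny neuron markers ran from 1040 to 15770 CPM (counts scaled to library size) in High Drinker libraries, against 733 to 13210 CPM in Low Drinker libraries, and none of the 13 was at 0. The summed level of 6 cortical glutamatergic markers ran from 126 to 2522 CPM in High Drinker libraries, against 374 to 3021 CPM in Low Drinker libraries, also with none at 0. Correlation with the other libraries was lowest in 5 libraries, High Drinker 17 and Low Drinker 8, 32, 33 and 34, with a median of 0.958 to 0.963 against at least 0.968 in the remaining libraries. The number in a library's name only counts it within its group. In bulk tissue, fewer cells of a type and less RNA per cell cannot be told apart.

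Per base of exon, Kcnip2 had by far the highest level of the 8 genes, with 69.3 ± 28.5 RPKM (reads per kilobase of exon, scaled to library size; mean ± SD over 84 libraries). Kcna1 followed with 28.1 ± 4.05 RPKM, Kcnd2 with 26.9 ± 6.55 RPKM and Kcnc1 with 20.9 ± 4.25 RPKM. Kcnq3 had 17.7 ± 3.34 RPKM, Kcna2 14.5 ± 5.68 RPKM, Kcna4 10.04 ± 3.68 RPKM and Kcnd3 8.62 ± 1.72 RPKM. Kcnip2 exceeded Kcna1 in 81 of 84 libraries. The order of the next pairs was less even: Kcna1 was above Kcnd2 in 49 libraries and Kcna4 above Kcnd3 in 45. Kcnd2 was above Kcnc1 in 62 libraries, Kcnc1 above Kcnq3 in 62, Kcnq3 above Kcna2 in 63 and Kcna2 above Kcna4 in 60. Below Kcnip2, the mean ± SD ranges of all neighbours in this order overlapped. Among the genes with the highest RPKM in the whole list were Kcnab2 (71.0 RPKM), a beta subunit of Shaker channels, Kcnip2, Kcnh3 (52.4 RPKM), an ether-a-go-go family channel, and Kcnip3 (50.3 RPKM), another KChIP.

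The spread between animals differed widely among the genes. The coefficient of variation was 41.2% for Kcnip2, 39.1% for Kcna2 and 36.6% for Kcna4, then 24.3% for Kcnd2, 20.4% for Kcnc1, 19.98% for Kcnd3, 18.9% for Kcnq3 and 14.4% for Kcna1. The median over all 17071 tested genes was 18.3%. After set, sex and line were taken out, the SD of Kcna2 was 0.74 on the log2 CPM scale, higher than in 93.3% of tested genes, and that of Kcna1 was 0.20, higher than in 36.6%. Kcna2 thus ran over a 31.8-fold range between the highest and lowest library and Kcna1 over a 2.43-fold range, although both encode subunits of the same axonal channels. Without Low Drinker 8 the lowest Kcna2 level was 10.4 CPM and the ranges were 8.57-fold for Kcna2 and 1.94-fold for Kcna1.

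**Figure D1:**
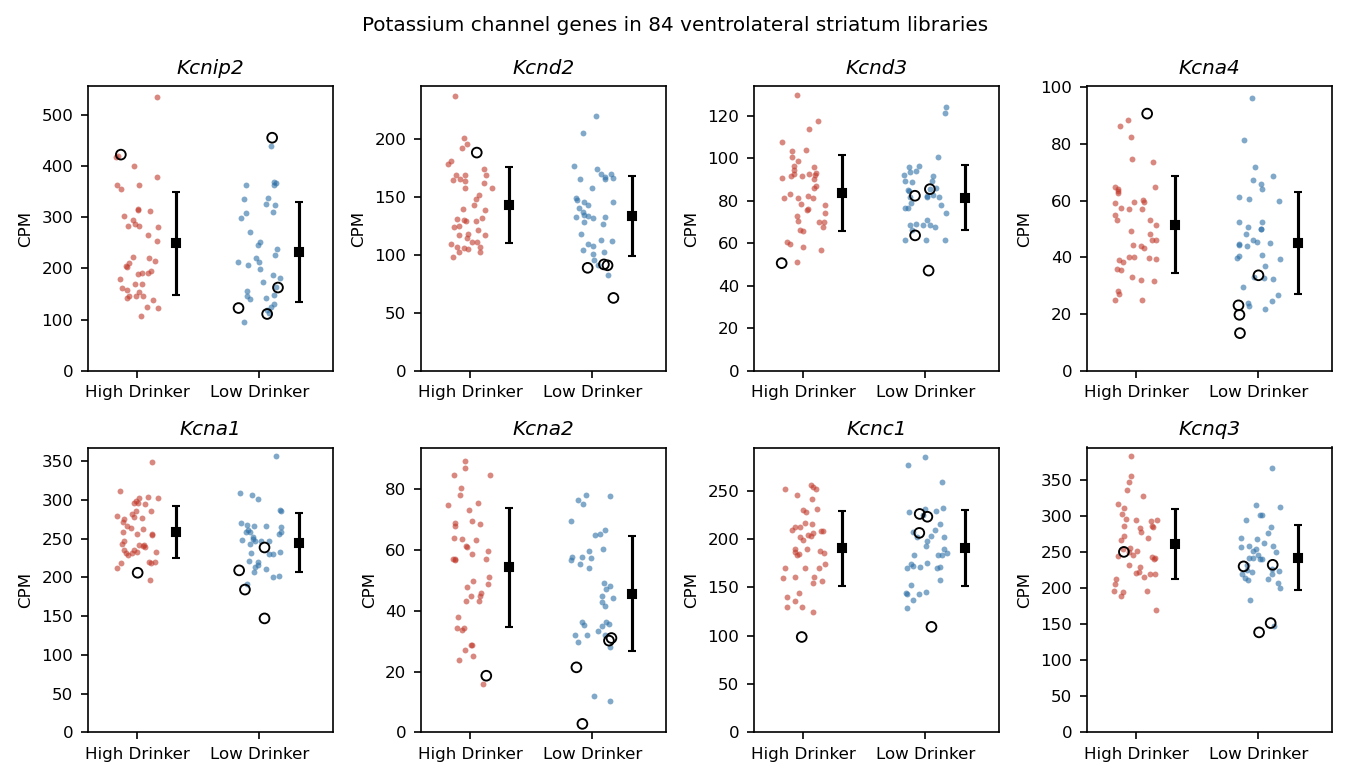
Levels of the 8 genes in CPM (vertical axes from 0), with 44 High Drinker libraries at the left and 40 Low Drinker libraries at the right of each panel. Points are libraries, open circles the 5 libraries that correlated least with the others, squares and bars the mean ± SD. The lines overlap in every panel, and the lowest Kcna2 value, 2.81 CPM, is Low Drinker 8.

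The main question of the series was which genes differ between High Drinker and Low Drinker animals. None of the 8 genes passed the test (edgeR quasi-likelihood F-test, adjusted p under 0.05), nor did any of the 47 tested genes of the list, where 3.94% of all tested genes did. At an unadjusted p under 0.05 the counts were 1 of 8 genes, 4 of 47 in the list and 3078 of 17071 tested genes, a share of 18%. The limma-voom and DESeq2 tests also called 0 of 8 and 0 of 47, and 659 and 829 of all genes they tested. All 8 differences had a positive sign, that is a higher fitted level in High Drinker animals, with a median of 0.08 on the log2 scale. The median over all tested genes was 0.00 and that of the list 0.04. A positive sign was held by 8643 of the 17071 tested genes. Levels of the 8 genes were correlated, so their signs are not 8 separate observations. The sign turned for Kcnc1, Kcnd2, Kcnd3 and Kcnip2 under at least 1 other model or subset.

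Among the A-type genes, Kcnip2 had a lowest, median and highest level of 108, 218 and 534 CPM in High Drinker animals, against 95.8, 213 and 455 CPM in Low Drinker animals. Kcnd2, a Shal pore subunit, had 98.2, 135 and 237 CPM in High Drinker animals, against 63.1, 134 and 221 CPM in Low Drinker animals. Most values of the lines overlapped for both genes, though 7 Low Drinker libraries had less Kcnd2 than any High Drinker library and 1 had less Kcnip2. The striatal marker scores of these 7 libraries are given with Kcna4 below. Of the High Drinker libraries, 23 of 44 High Drinker libraries exceeded the Low Drinker median of Kcnip2 and 22 that of Kcnd2. The log2 difference of Kcnip2, High Drinker minus Low Drinker, was 0.02 ± 0.12 (SE; adjusted p = 0.954, edgeR) and that of Kcnd2 was 0.04 ± 0.07 (adjusted p = 0.817). Neither sign was stable: Kcnip2 was at -0.18 in set 1 and 0.25 in set 2, and Kcnd2 at -0.01 without the 5 libraries that correlated least with the others.

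Kcnd3, the second Shal pore subunit, had 50.7, 82.9 and 130 CPM in High Drinker animals, against 47.2, 82.1 and 124 CPM in Low Drinker animals. Kcna4 had 24.99, 50.4 and 90.7 CPM in High Drinker animals, against 13.3, 44.5 and 96.3 CPM in Low Drinker animals. Most values of the lines overlapped for both, but 7 Low Drinker libraries had less Kcna4 than any High Drinker library and 1 had less Kcnd3. The log2 difference was 0.07 ± 0.07 for Kcnd3 (adjusted p = 0.604, edgeR) and 0.11 ± 0.11 for Kcna4 (adjusted p = 0.669). Within set 1 and set 2 Kcna4 was at 0.07 and 0.19. The 3 lowest Kcna4 levels among the 5 libraries apart, 13.3, 19.8 and 23.1 CPM, were in Low Drinker 34, 33 and 32, which also had striatal marker scores of -2.41, -2.74 and -2.88. This score is the mean z value of the 13 striatal markers. The 7 libraries low in Kcna4 were Low Drinker 21, 32, 33, 34, 35, 37 and 39, with scores from -2.88 to -1.21. Those low in Kcnd2 were Low Drinker 21, 32, 33, 34 and 35, and Low Drinker 8 and 26 with scores of 0.59 and -0.48. High Drinker 43, the lowest of its line in both genes, had a score of -2.13. Whether these low levels follow from the score was not tested.

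Kcna1, a low-threshold axonal subunit, had 196, 256 and 349 CPM in High Drinker animals, against 147, 247 and 357 CPM in Low Drinker animals. Its log2 difference was 0.10 ± 0.05 with a 95% interval of 0.01 to 0.19, the only one of the 8 with an unadjusted p under 0.05 (p = 0.0264, adjusted p = 0.206, edgeR). The groups overlapped: 24 of 44 High Drinker libraries were above the Low Drinker median, and 3 Low Drinker libraries were below every High Drinker library. The difference was positive in all 14 alternatives run (other scalings, filters, tests, model terms and subsets), between 0.07 and 0.11, with adjusted p between 0.0617 and 0.959. Within set 1 it was 0.09 and within set 2 it was 0.07. In females alone it was 0.10, and in males alone it was 0.10.

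Kcna2, the usual partner of Kcna1, had 16.1, 57.0 and 89.5 CPM in High Drinker animals, against 2.81, 44.6 and 78.2 CPM in Low Drinker animals. The means were 54.4 ± 19.6 CPM in High Drinker, against 45.6 ± 18.9 CPM in Low Drinker mice (SD, n = 44 and 40). Of 44 High Drinker libraries, 31 were above the Low Drinker median and 5 above every Low Drinker library, yet most values of the lines overlapped. The log2 difference was 0.29 ± 0.15, the largest of the 8, with a 95% interval of -0.0027 to 0.59 (unadjusted p = 0.0519, adjusted p = 0.282, edgeR). It was positive under all 14 alternatives, from 0.22 to 0.39 with adjusted p from 0.0334 to 0.950, and stood at 0.30 in set 1 and 0.26 in set 2. The single call came with 5 surrogate variables in the model, where the difference was 0.27 (adjusted p = 0.0334) and 2490 of all tested genes were called. Without the 5 libraries that correlated least it was 0.22 (adjusted p = 0.457).

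Kcnc1, the fast-spiking subunit, had 98.7, 190 and 256 CPM in High Drinker animals, against 109, 188 and 285 CPM in Low Drinker animals. Kcnq3 had 169, 253 and 383 CPM in High Drinker animals, against 139, 241 and 367 CPM in Low Drinker animals. Neither gene separated the lines. For Kcnc1 23 of 44 High Drinker libraries were above the Low Drinker median, with a log2 difference of 0.05 ± 0.06 (adjusted p = 0.744, edgeR) that turned to -0.01 with no set term. For Kcnq3 29 of 44 were above it, with a log2 difference of 0.09 ± 0.06 (adjusted p = 0.438), 0.05 in set 1 and 0.11 in set 2.

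**Figure D2:**
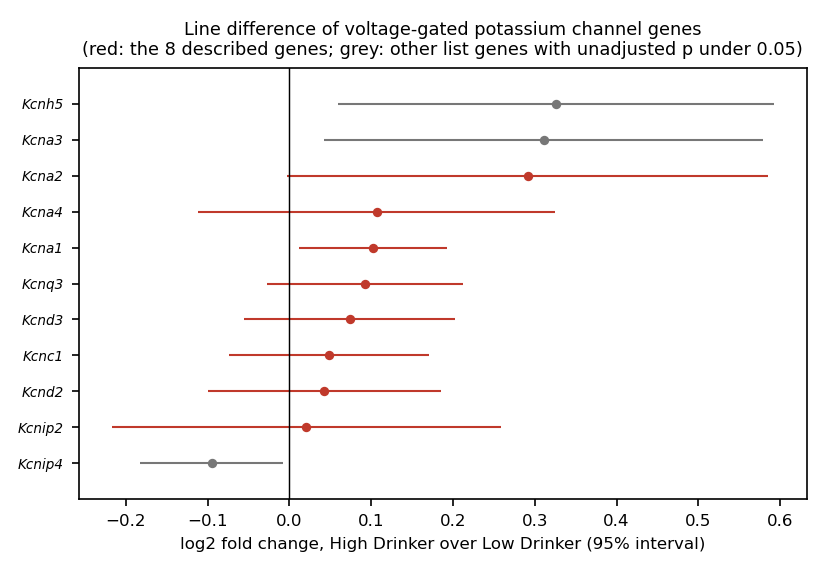
Log2 difference, High Drinker over Low Drinker, with 95% intervals (edgeR), in red for the 8 described genes and in grey for the 3 other genes of the list with an unadjusted p under 0.05. The 8 red points lie between 0.02 (Kcnip2) and 0.29 (Kcna2), all to the right of 0, and the intervals of 7 of them include 0.

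In the wider list, 3 further genes had an unadjusted p under 0.05: Kcnh5, an ether-a-go-go channel, with a log2 difference of 0.33 (adjusted p = 0.165, edgeR), Kcna3, a Shaker subunit, with 0.31 (adjusted p = 0.195), and Kcnip4, another KChIP, with -0.10 (adjusted p = 0.234). These 3 were picked out by their p-values and none passed after adjustment. In the plot of line differences the red intervals of all genes but Kcna1 include 0, and differences within them were not detectable at this spread between animals. Of the 47 list genes, 29 had a positive sign.

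Sex was compared in the same fit. Of the 8 genes, 0 passed, where 0.0996% of all tested genes did, and 0 had an unadjusted p under 0.05 (edgeR), where 688 of all tested genes (4.03%) did. Female minus male differences ran from -0.03 for Kcnd3 to 0.11 ± 0.12 for Kcnip2 on the log2 scale. Kcnip2 had 108, 223 and 455 CPM at the lowest, median and highest in females, against 95.8, 210 and 534 CPM in males, so the sexes overlapped.

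The interaction of line and sex, tested by edgeR, passed in 0 of the 8 genes and in 0% of all tested genes; at an unadjusted p under 0.05 the counts were 0 and 965. Kcna4 had the widest gap. Its mean in females was 49.99 ± 16.98 CPM in High Drinker, against 48.2 ± 14.6 CPM in Low Drinker mice (SD, n = 21 and 18). In males it was 53.1 ± 17.4 CPM in High Drinker, against 42.7 ± 20.5 CPM in Low Drinker mice (SD, n = 23 and 22). The line difference in females minus that in males was -0.22 ± 0.22 on the log2 scale (adjusted p = 0.825, edgeR).

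Differential variance between the lines was another question of the series. By limma on absolute deviations from the median of line and sex, 0 of the 8 genes passed, where 0.0117% of all tested genes did, and 0 had an unadjusted p under 0.05, where 694 of all tested genes (4.07%) did. Kcna2 showed the widest gap: its coefficient of variation was 36.1% in High Drinker, against 41.4% in Low Drinker animals, and the mean absolute deviation differed by -0.14 ± 0.13 on the log2 scale (adjusted p = 0.979). The lowest library set much of the range of Kcna2. It ran over 5.57-fold in High Drinker, against 27.8-fold in Low Drinker animals, where Low Drinker 8 stood at 2.81 CPM and the range without it was 7.497-fold.

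The 8 genes did not vary independently over the animals. Pearson correlations were taken over 84 libraries on log2 CPM with set, sex and line taken out. Of 28 pairs, 20 had a permutation p under 0.05 after Benjamini-Hochberg adjustment over the 28, of which 15 were positive and 5 negative, with a median r of 0.243 over the 28. Correlation of this size was common in the table: among all pairs of 14408 genes of at least 1 CPM, 49.61% had an absolute r of 0.229 or more, the smallest that was called here. An r of 0.8 or more was rarer, at 0.4542% of all pairs. Within set 1 alone 18 of the 28 pairs were called, and within set 2 alone 13. The smallest p that the 100000 permutations can give is 1e-05.

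The pair of Kcna4 and Kcnd2, both A-type pore subunits, had the highest correlation, with r = 0.895 and rho = 0.907 (permutation p = 1e-05, adjusted 2.33e-05 for r and 2.55e-05 for rho). It was 0.894 in set 1, 0.889 in set 2 and 0.880 without the 2 libraries farthest in Kcna4. Kcna4 and Kcnip2 followed, with r = 0.743 and rho = 0.756 (permutation p = 1e-05, adjusted 2.33e-05 and 2.55e-05), 0.801 in set 1, 0.658 in set 2 and 0.769 without the 2 farthest libraries. Kcna1 and Kcna2, the partners in axonal channels, came next, with r = 0.723 and rho = 0.688 (permutation p = 1e-05, adjusted 2.33e-05 and 2.55e-05), 0.742 in set 1, 0.736 in set 2 and 0.663 without the 2 farthest libraries. Among all 14408 genes, Kcna2 ranked 21 by its r with Kcna1, while Kcna1 ranked 708 by its r with Kcna2.

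The lowest pairs joined Kcnip2 or Kcna4 to the remaining channels. Kcnd3 and Kcnip2, a Shal pore subunit and a Shal accessory protein, had r = -0.556 and rho = -0.550 (permutation p = 1e-05, adjusted 2.33e-05 and 2.55e-05), with -0.680 in set 1, -0.209 in set 2 and -0.505 without the 2 farthest libraries. Kcnc1 and Kcnip2 had r = -0.527 and rho = -0.544 (permutation p = 1e-05, adjusted 2.33e-05 and 2.55e-05), with -0.606 in set 1, -0.316 in set 2 and -0.492 without the 2 farthest libraries. Both relations missed the threshold within set 2, with adjusted p of 0.354 and 0.147. Kcna4 and Kcnc1 had r = -0.511 and rho = -0.521 (permutation p = 1e-05, adjusted 2.33e-05 and 2.55e-05), with -0.519 in set 1, -0.427 in set 2 and -0.472 without the 2 farthest libraries. Over these libraries Kcnip2 went with Kcnd2 (r = 0.672, rho = 0.689, permutation p = 1e-05, adjusted 2.33e-05 and 2.55e-05; 0.729 in set 1, 0.564 in set 2) and against Kcnd3, and the pore subunits Kcnd2 and Kcnd3 had r = -0.0498 and rho = -0.106 with each other (permutation p = 0.650 and 0.335, adjusted 0.674 and 0.391), -0.245 in set 1 and 0.420 in set 2. Without the 2 farthest libraries the r was 0.772 for Kcnd2 and Kcnip2 and -0.179 for Kcnd2 and Kcnd3. Both pairs changed sign with the marker scores described next also taken out, to -0.168 for Kcnd2 and Kcnip2 and 0.383 for Kcnd2 and Kcnd3.

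**Figure D3:**
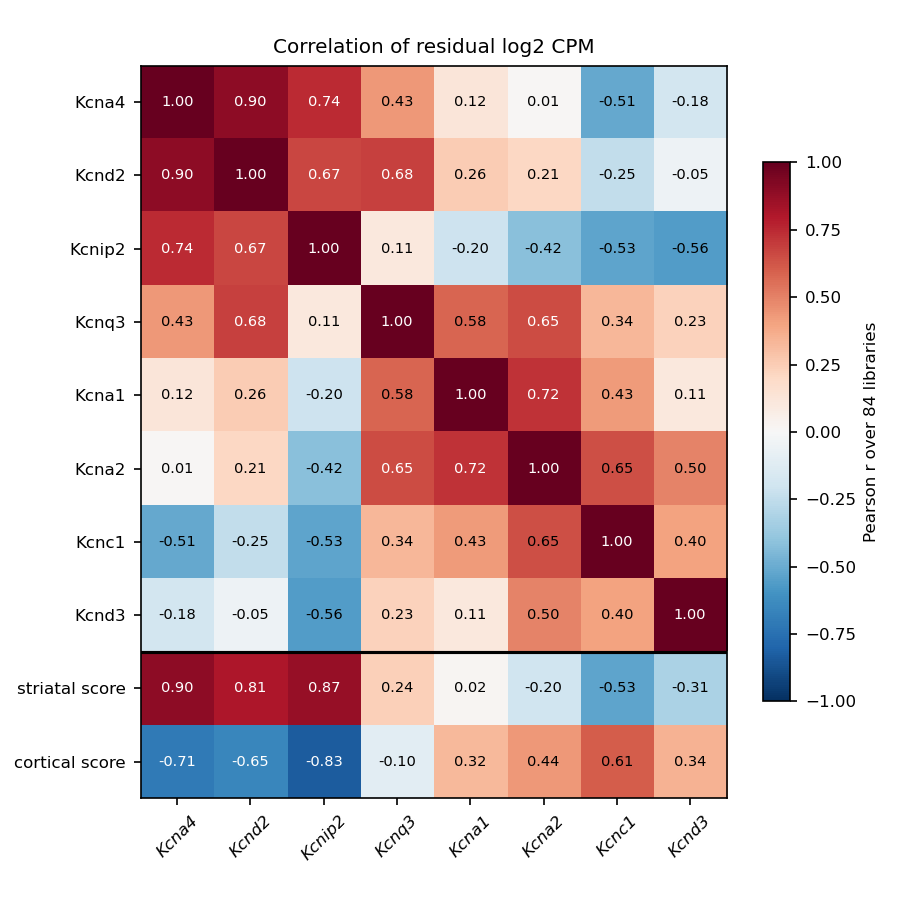
Pearson r over 84 libraries between the 8 genes, on log2 CPM with set, sex and line taken out, and below the line their r with the striatal and cortical marker scores. Red is positive and blue negative; Kcna4, Kcnd2 and Kcnip2 form a red block at the upper left with 0.90, 0.74 and 0.67, and Kcnip2 is blue against Kcnd3 at -0.56.

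Levels were also set against markers of the tissue. The striatal score correlated with Kcna4 (r = 0.897, rho = 0.896), Kcnip2 (r = 0.871, rho = 0.910) and Kcnd2 (r = 0.808, rho = 0.841), each with a permutation p of 1e-05 and an adjusted p of 2e-05 over 16 relations. Within set 1 and set 2 these r values were 0.916 and 0.898 for Kcna4, 0.944 and 0.781 for Kcnip2, and 0.831 and 0.779 for Kcnd2, and without the 2 farthest libraries they were 0.9004, 0.875 and 0.810. Single markers gave a like picture as a description. Kcna4 had r = 0.929 with Drd1, the dopamine receptor of direct-pathway neurons, but also 0.8585 with Drd2 and 0.848 with Ppp1r1b. Kcnip2 had r = 0.915 with Ppp1r1b, the DARPP-32 gene of medium spiny neurons, 0.826 with Drd1 and 0.816 with Drd2.

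Kcnc1 ran the other way, with r = -0.529 and rho = -0.573 against the striatal score (permutation p = 1e-05, adjusted 2e-05), -0.589 in set 1, -0.462 in set 2 and -0.549 without the 2 farthest libraries. Its r with the score of 6 cortical glutamatergic markers was 0.607 and its rho 0.622 (permutation p = 1e-05, adjusted 2e-05), with 0.714 in set 1, 0.356 in set 2 and 0.602 without the 2 farthest libraries. With Pvalb, the marker of fast-spiking interneurons, Kcnc1 had r = 0.702, but with the score of the whole list of 8 interneuron markers, which holds Pvalb, it had r = -0.355. Both are given as descriptions.

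Kcnd3 had r = -0.314 and rho = -0.365 with the striatal score (permutation p = 0.00343 and 0.00056, adjusted 0.00457 and 0.000896), but -0.538 in set 1 and 0.0952 in set 2, so this relation did not hold in both sets; it was -0.286 without the 2 farthest libraries. Kcnq3 had r = 0.236 and rho = 0.248 (permutation p = 0.0307 and 0.0237, adjusted 0.0378 and 0.0271), 0.300 in set 1, 0.0225 in set 2, where it did not hold, and 0.243 without the 2 farthest libraries. Kcna1 had r = 0.0187 and rho = -0.0518 with that score (permutation p = 0.865 and 0.639, adjusted 0.865 and 0.639), -0.0257 in set 1, -0.0144 in set 2 and -0.101 without the 2 farthest libraries. Kcna2 had r = -0.196 and rho = -0.289 (permutation p = 0.0737 and 0.00812, adjusted 0.0842 and 0.0118), -0.287 in set 1, -0.117 in set 2 and -0.216 without the 2 farthest libraries. With the cortical score Kcna2 had r = 0.437 and rho = 0.461 (permutation p = 0.00015 and 5e-05, adjusted 0.000267 and 8.89e-05), 0.503 in set 1, 0.306 in set 2 and 0.425 without the 2 farthest libraries. The other r values with the cortical score were -0.832 for Kcnip2, -0.707 for Kcna4, -0.652 for Kcnd2, 0.345 for Kcnd3 (-0.134 in set 2), 0.324 for Kcna1 and -0.103 for Kcnq3, and the 2 scores had r = -0.776 with each other.

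**Figure D4:**
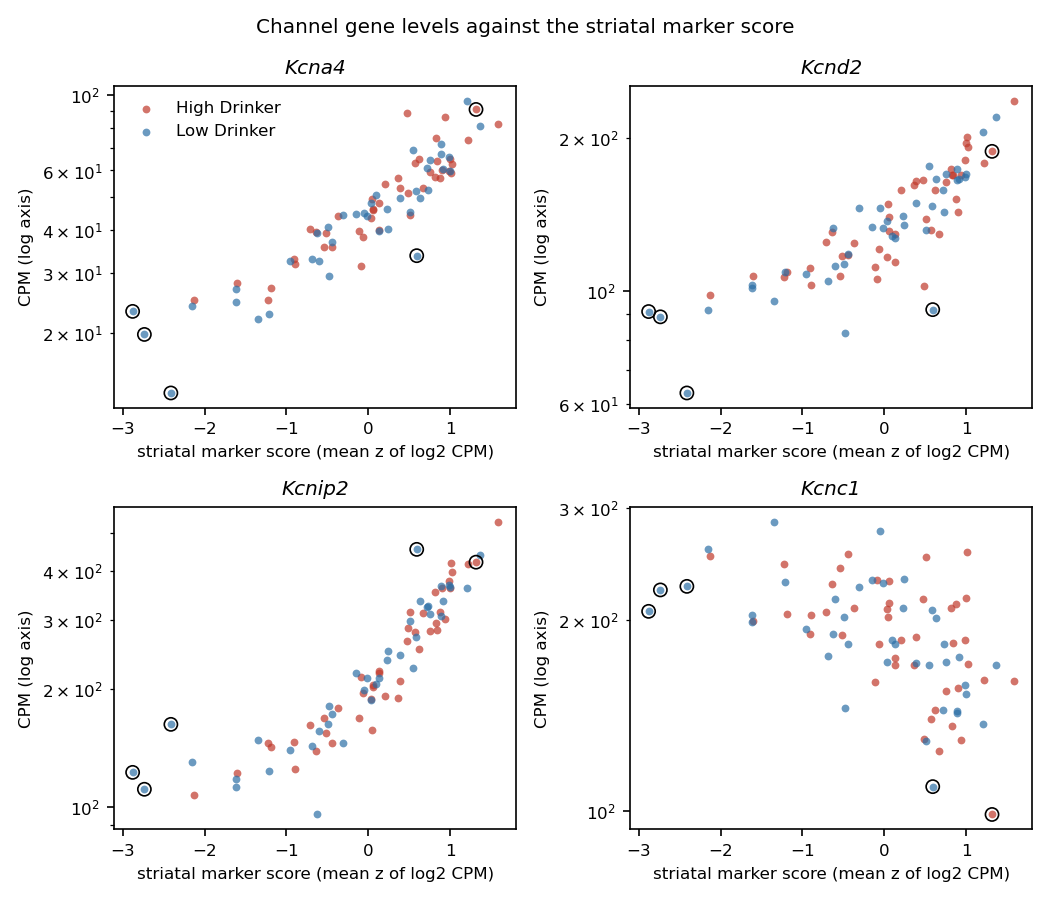
CPM of Kcna4, Kcnd2, Kcnip2 and Kcnc1 (log axes) against the striatal marker score (mean z of log2 CPM of 13 markers) in 44 High Drinker (red) and 40 Low Drinker (blue) libraries; rings mark the 5 libraries that correlated least with the others. Kcna4, Kcnd2 and Kcnip2 climb with the score over both lines while Kcnc1 declines, with r of 0.897, 0.808, 0.871 and -0.529 after set, sex and line were taken out.

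The striatal score itself ran from -2.14 through a median of 0.28 to 1.58 in High Drinker animals. In Low Drinker animals it ran from -2.88 through 0.06 to 1.37. Most scores of the lines overlapped, but Low Drinker 32, 33, 34 and 35, at -2.88, -2.74, -2.41 and -2.15, were below every High Drinker library. With the striatal and cortical scores also taken out, 22 of 28 pairs were called, against 20 before. The median r was then 0.392, against 0.243 before, and the pairs changed unevenly. Kcna2 and Kcnd2 rose to r = 0.750, against 0.208 before, and Kcna2 and Kcna4 to 0.515, against 0.0142 before. Kcna4 and Kcnip2 turned to r = -0.224, Kcnc1 and Kcnip2 to 0.0328 and Kcna4 and Kcnc1 to -0.0909, of which none was called. Kcnc1 and Kcnd2 turned to 0.412, against -0.248 before, and Kcna4 and Kcnd3 to 0.248, against -0.182 before. In contrast, Kcna4 and Kcnd2 kept r = 0.653, Kcna1 and Kcna2 kept 0.660 and Kcnd3 and Kcnip2 kept -0.610. The highest of the 28 was then Kcnd2 with Kcnq3 at 0.879, against 0.683 before, and Kcna2 with Kcnq3 stood at 0.766, against 0.653 before. With the scores in the model of the line difference, 0 of 8 genes and 988 of all tested genes were called by edgeR; Kcnip2 was at -0.07 and Kcna2 at 0.30 (adjusted p = 0.174).

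**Figure D5:**
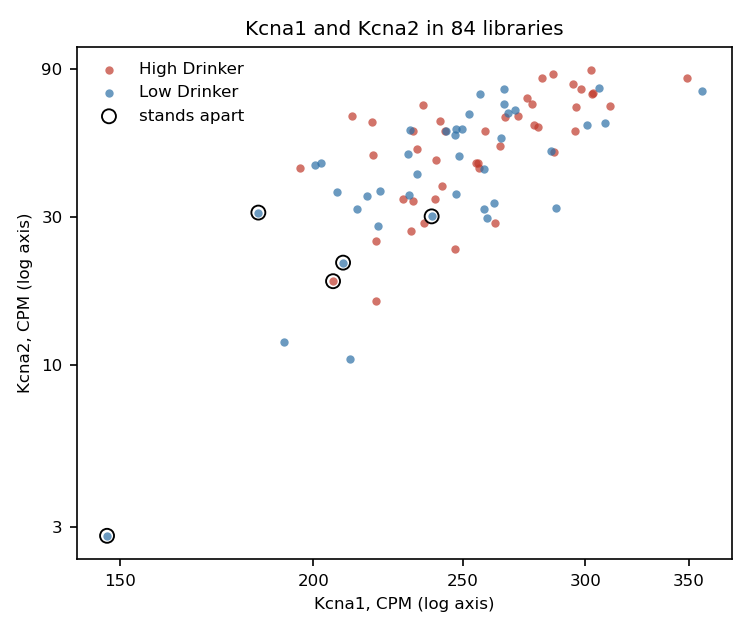
Kcna2 against Kcna1, both in CPM on log axes, in 44 High Drinker (red) and 40 Low Drinker (blue) libraries, with rings on the 5 libraries that correlated least with the others. The genes climb together with r = 0.723 after set, sex and line were taken out, and the point at the lower left, Low Drinker 8, has 147 CPM of Kcna1 and 2.81 CPM of Kcna2.

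The libraries with the least Kcna2 were Low Drinker 8 with 2.81 CPM, Low Drinker 12 with 10.4 CPM and Low Drinker 26 with 11.9 CPM. In those libraries Kcna1 was at 147, 211 and 191 CPM, below its median of 249 CPM over all 84 in each. Low Drinker 8 also had the lowest level of Kcnd3, 47.2 CPM, and of Kcnq3, 139 CPM, and the highest Kcnip2 of its line, 455 CPM. Without the 5 libraries that correlated least, Kcna1 and Kcna2 had r = 0.638, Kcna4 and Kcnd2 0.879 and Kcnd3 and Kcnip2 -0.544, and 19 of 28 pairs were called.

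Differential wiring between the lines, a further question of the series, was tested as the difference in r of each pair, with line labels permuted 100000 times within sex and set. Of 28 pairs, 0 passed after adjustment and 2 had an unadjusted p under 0.05; with Spearman rho 0 passed as well. Kcna4 and Kcnd3 had r = -0.456 in High Drinker, against 0.134 in Low Drinker animals (permutation p = 0.0131, adjusted 0.366). Kcna4 and Kcnd2 had r = 0.848 in High Drinker, against 0.934 in Low Drinker animals (permutation p = 0.0356, adjusted 0.443). For Kcna1 and Kcna2 the values were 0.676 in High Drinker, against 0.764 in Low Drinker animals (permutation p = 0.510, adjusted 0.680).

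The genes with patterns most like each of the 8 were read off as a description, by Pearson r over the 84 libraries among 14408 genes of at least 1 CPM. Kcna4 was nearest to Dgkb (r = 0.953), a diacylglycerol kinase, then Pde7b (0.941), a cyclic AMP phosphodiesterase, and Grik2 (0.936), a kainate receptor subunit. Kcnd2 was nearest to Strn (0.948), Dgkb (0.947) and Tomm70a (0.933). Dgkb thus came first or second for both Kcna4 and Kcnd2. Kcnip2 was nearest to Ptpn5 (0.968), the striatum-enriched phosphatase, then Tcf7 (0.952) and Lingo3 (0.943).

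Genes near Kcna2 in pattern were Gm10010 (0.960) and Faxc (0.952). Kcna1 had lower values, with Slc24a2 (0.841), a sodium, calcium and potassium exchanger, Klf9 (0.777) and Tmem132b (0.762). Genes near Kcnc1 were Iqsec3 (0.889) and Ank1 (0.866). Kcnq3 was nearest to Rgs7bp (0.911), which binds R7 family RGS proteins, then Tnik (0.875) and Rps6ka3 (0.858), and Kcnd3 to Pygo1 (0.842), Epha5 (0.825) and Slc39a6 (0.825).

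Across the list of 47 tested genes, 9 (19.15%) had r of 0.5 or more with the striatal score and 17 (36.17%) had -0.5 or less, where among all tested genes the shares were 12.78% and 14.53%. The highest were Kcnab1, a Shaker beta subunit, at 0.934, Kcna4 at 0.897, Kcna5 at 0.887, Kcnip2 at 0.871 and Kcnd2 at 0.808. At the other end stood Kcns3 at -0.805, Kcnc4 at -0.785 and Kcna6 at -0.757. The median was 0.127 over the 8 genes, -0.196 over the list and 0.0261 over all tested genes.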

How the data were processed

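Gene counts for 84 libraries were used as deposited: the authors counted single-end reads of 100 bp per gene, with FastQC, STAR, featureCounts of Subread and edgeR on mm10 per the submitters' processing notes. Tool versions, the strand setting of counting and the handling of multi-mapping reads: not given in the sources used here. Per the labels' protocols, cDNA was amplified before library preparation, so counts hold duplicates.

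Groups and sex are from the labels. Sets are inferred from the sample numbers in the titles. Each library was treated as a separate animal, and the labels name no families. The p-values set differences against the spread between these libraries. They do not speak for further lines bred in the same way.

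Line, sex and interaction were tested with the quasi-likelihood F-test of edgeR 4.0.16 (R 4.3.3) after filterByExpr and TMM scaling, with set, sex and line as terms, and adjusted over 17071 genes by Benjamini-Hochberg. Spread was tested with limma 3.58.1 on log2 CPM with a prior count of 2. Correlations used 100000 two-sided permutations. CPM use TMM library sizes, and RPKM divide by the exon length given in the count table. DESeq2 1.42.0, sva 3.50.0, limma-voom, other scalings, filters, terms and subsets were alternatives. Python 3.11.15, numpy 2.4.6, pandas 2.3.3 and matplotlib 3.10.9 were used otherwise. The edgeR tests of line, sex and interaction and the limma test of spread were also run on simulated data, with outcomes not reported here. The DESeq2 and limma-voom tests were not.

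Named were all 8 genes, list genes past the threshold or among the 5 highest in RPKM, the 3 highest and 3 lowest pairs, and the 3 nearest genes of each. Further genes and pairs were named after their values were seen, namely those with an unadjusted p under 0.05 or at the ends of the striatal score correlations. Not every gene taken by this rule is reported here. The 8 genes and all lists were chosen with earlier results of these data known.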

Additional observations from a re-analysis of the deposited data

How the results depend on the processing

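The call count of the line difference stayed at 0 of 8 genes and 0 of the list genes tested (47 in the main fit) in 13 of 14 alternatives. With 5 surrogate variables it was 1 (Kcna2) and 5. Over all tested genes it was 672, and 79 in set 1, 79 in set 2, 35 in females, 107 in males, 2490 with 5 surrogate variables and 425 without the 5 libraries apart (chosen after seeing the data); the subsets hold fewer samples. The sign of the log2 line difference turned for Kcnc1 (-0.0122 with no set term, -0.0022 in males), Kcnd2 (-0.0094 in set 1, -0.0245 in females, -0.0026 with marker scores, -0.0015 with surrogate variables, -0.0111 without the 5 libraries), Kcnip2 (-0.18 in set 1, -0.0021 without set 3, -0.0751 in females, -0.0726 with scores, -0.0016 with surrogate variables) and Kcnd3 (-0.0596 in set 2). Kcna1 turned for sex (0.011 without set 3, 0.0059 without the 5 libraries) and interaction (0.0001 without the 5 libraries). The spread difference turned for Kcnc1 (0.0057) and Kcnq3 (-0.0023) without set 3, and for Kcna1 (0.0091) and Kcnd2 (0.0082) without the 5 libraries. Called pairs were 20, and 13 in set 2 alone, which holds 30 libraries. With marker scores taken out, 22 pairs were called and r turned to -0.224 for Kcna4 and Kcnip2, 0.0328 for Kcnc1 and Kcnip2, -0.168 for Kcnd2 and Kcnip2, 0.412 for Kcnc1 and Kcnd2, 0.383 for Kcnd2 and Kcnd3, and 0.248 for Kcna4 and Kcnd3, besides pairs not named here. The cause of these turns was not tested. No paired analysis was possible because replicate numbers were given in accession order and tie no animals together. Amplified cDNA without molecular tags limits what counts show of molecules.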

Other observations

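Further marker lists were scored by the mean z value of their markers, on log2 CPM with set, sex and line taken out. Kcnd2 had r = 0.601 and Kcna4 r = 0.461 with the score of 4 microglial markers, and Kcnd3 had r = 0.579 with that of 5 astrocyte markers. The score of 8 interneuron markers had r = 0.698 with Kcnip2, 0.601 with Kcna4 and 0.537 with Kcnd2. That of 4 choroid plexus markers had r = 0.611 with Kcnip2, 0.562 with Kcna4 and 0.494 with Kcnd2. All are over 84 libraries, which differ in depth and in striatal marker score. With the log2 total count, the r of the 8 genes ran from -0.242 for Kcnip2 to 0.338 for Kcnd3. The genes most opposite in pattern were B3galnt1 for Kcnip2 (r = -0.931), Trim3 for Kcna4 (r = -0.902), Mapre3 for Kcnd2 (r = -0.877) and Plekhj1 for Kcna2 (r = -0.859). These values are descriptions without a test, picked after they were seen.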
